A study of Drosophila melanogaster with 20 samples.

Results

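The genes described here encode subunits of the mitochondrial respiratory chain and the ATP synthase. They were taken by symbol: every probe set with 1 gene symbol whose current symbol begins with ND-, COX, UQCR, ATPsyn or Sdh, with 1 probe set per gene (the one with the highest mean over 20 arrays). Of 67 such genes, 57 had a mean log2(signal + 16) of at least 4.66 over the 20 arrays, which corresponds to a signal of 9.28. These 57 are the members, among 8360 genes tested on the array. They comprise 31 genes of complex I, 4 of complex II, 3 of complex III, 6 of complex IV and 13 of complex V. The prefix Sdh also brings in Sdhaf3, an assembly factor of complex II that is not itself a subunit. The 10 genes under the level were 9 second copies, marked by an L at the end of the symbol, and COX7C, an ordinary subunit of complex IV whose median signal was 2.23.

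The respiratory chain sits in the inner mitochondrial membrane. Complex I takes electrons from NADH, complex II takes them from succinate, and both pass them through ubiquinone to complex III and then, by way of cytochrome c, to complex IV, which reduces oxygen. Protons pumped along the way drive complex V, the ATP synthase. Most subunits are encoded in the nucleus, and it is these transcripts that the symbols above cover. Muscle is among the tissues richest in mitochondria, and Mef2 is a MADS-box transcription factor that muscle differentiation in Drosophila requires.

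Total RNA came from pools of 150 whole Drosophila melanogaster embryos at mid stage 13, from collections of 30 minutes aged for 6.5 h at 25 °C. There were 5 genotypes with 4 arrays each. The control was the stock dp cn a px sp, which carries visible markers on the second chromosome. The hypomorphic alleles mef2(65), mef2(424) and mef2(113) came from a mutagenesis of that stock, and mef2(22.21) is a null allele for which no parent stock is named in the labels. Mef2 activity falls, per the series design, in the order control, 65, 424, 113 and 22.21. Mutant embryos were those without the balancer CyO P(Gal4-twi)P(UAS-2eGFP), a second chromosome that carries a twist-driven GFP. In whole embryos, fewer cells of a type and less RNA per cell cannot be told apart. The labels do not state whether replicate arrays of 1 genotype hold RNA from different embryo collections, and every p-value therefore reflects array-to-array spread that could be technical.

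Signals are MAS5 intensities on a linear scale. Array medians lay between 33.6 and 37.3, and arrays of 1 genotype correlated across genes at a Pearson r of 0.964 to 0.977. The number of arrays, 4 per genotype, limits the precision: the median SD of a member within a genotype was 0.112 on the log2 scale. Per the run records, all 4 control arrays ran on fluidics module 4, the null arrays on modules 4 and 3, and no hypomorph array on module 4, so that for the hypomorphs the module and the genotype share no direct comparison with the control. The level of Mef2 itself was not analysed here, because no named probe set represents it. Of 12 somatic muscle markers 10 were tested, and 9 were lower in the null. The summed signal of all 12 was 1536 to 1901 in the control, 1184 to 1397 in 65, 768 to 980.2 in 424, 585 to 706 in 113 and 388 to 463 in the null, with Mf and Prm under the level throughout. Summed signals of 5 gut endoderm markers were 1754 to 1983 in the null against 1140 to 1349 in the control, and those of 5 fat body markers were 2052 to 2563 against 2861 to 3344. Of the 5 gut markers 1 was called in the null, higher, and 3 were above the control. Of the 5 fat body markers 1 was called there, lower, and 1 was above the control. Sums for 5 neuron markers were 647 to 929 in the null, 780 to 1044 in 113, 820 to 1053 in 424 and 877 to 994 in 65 against 616 to 719 in the control. In the null 0 of these markers were called and 2 of 5 were above the control. In 113, 424 and 65, 3, 5 and 5 of the 5 were above the control, also with 0 called. Sums for the markers of hemocytes were 740.1 to 879.6 in 113 against 544 to 624, with Hml and NimC1 under the level. Of the 4 hemocyte markers tested 1 was called in 113, higher, and 4 were above the control. Whether these cell types have a part in the values below was not tested.

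Against the control, more members were called higher than lower in each of the 4 alleles. A gene was called when limma's moderated test on log2(signal + 16), adjusted by Benjamini-Hochberg over all 8360 genes, gave a p under 0.05. In the null 19 of 57 members were called, 16 higher and 3 lower, where 19.8% of all genes tested were called, 8.86% higher and 10.9% lower. In 113, 10 members were called, all higher, where 7.38% of all genes were called, 3.43% higher and 3.95% lower. In 424, 8 members were higher and 2 lower, where 10.2% of all genes were called, 4.67% higher and 5.49% lower. In 65, 6 were higher and 2 lower, where 6.08% of all genes were called, 2.98% higher and 3.10% lower. The 4 comparisons share the same 4 control arrays, so they are not independent of each other. Counted by arrays that do not overlap with the control, 16 members were higher and 4 lower in the null, where 9.67% and 11.3% of all genes were. The counts were 15 and 0 in 113 (5.86% and 6.56% of all genes), 11 and 3 in 424 (7.55% and 7.95%) and 7 and 3 in 65 (5.48% and 5.32%). Members called in at least 1 of the 4 comparisons numbered 24, where 27.3% of all genes were, and 33 were called in none.

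**Figure D1:**
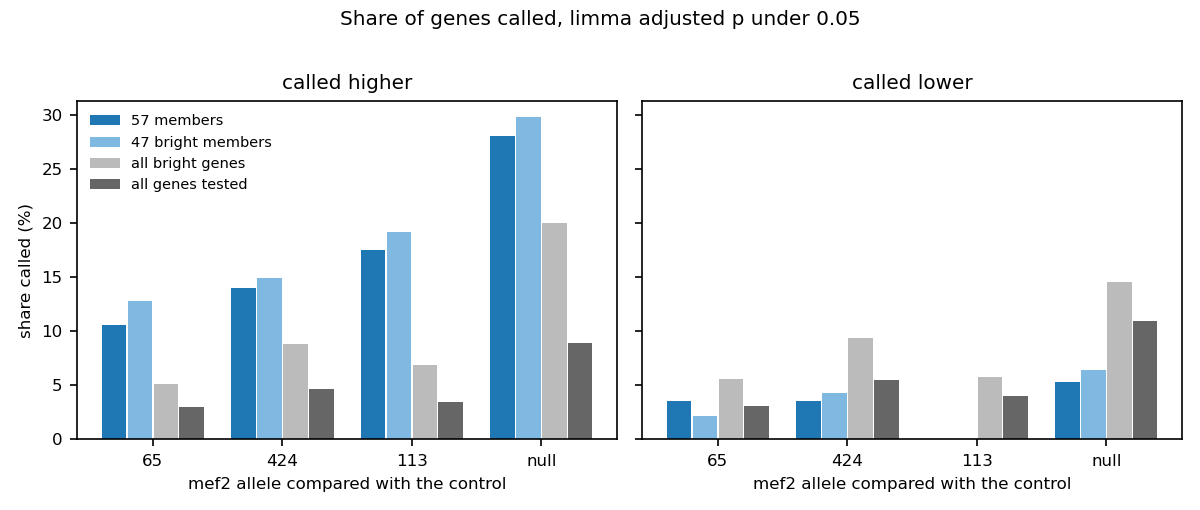
The bars give the share of genes, in percent, called higher (left) or lower (right) than the control in each mef2 allele (limma, Benjamini-Hochberg adjusted p under 0.05), for the 57 members, the 47 bright members with a mean log2(signal + 16) of at least 8, all 1434 genes at that level, and all 8360 genes tested. In the null 16 of 57 members were called higher and 3 lower, and in 113 the bar for lower members is at 0.

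The members are mostly bright, and bright genes were called more often than dim ones. At a mean log2(signal + 16) of at least 8 stood 47 members and 1434 genes in all. In the null 36.2% of the 47 were called, close to the 34.6% of all genes at that level. By direction, 14 of the 47 were higher and 3 lower, where 20% of the bright genes were higher and 14.6% lower. In 113, 424 and 65 the bright members were called in 19.1%, 19.1% and 14.9% of cases, against 12.7%, 18.1% and 10.7% of all bright genes. Of all bright genes 6.90% were higher and 5.79% lower in 113, 8.79% and 9.34% in 424, and 5.09% and 5.58% in 65. The median log2 change of all 57 members was 0.14 in the null, 0.092 in 113, 0.077 in 424 and 0.020 in 65, where the median of the bright genes was 0.054, 0.032, 0.021 and 0.016 and that of all genes -0.010, 0.0008, 0.0073 and 0.011. The 57 members include 10 with a mean log2 under 8, so their median and that of the bright genes do not cover like sets. With quantile normalisation the median of the members in the null was 0.083, and with the hybridisation day as a block that in 65 was 0.0019. All null arrays had a lower median signal (33.6 to 34.8) than all control arrays (35.5 to 37.2). By hybridisation day, the median of the members in the null was 0.074, 0.079, 0.057 and 0.26 on days 1 to 4, and in 113 it was 0.088, 0.078, 0.060 and 0.15. In 424 it was 0.033, 0.063, 0.070 and 0.12, and in 65, hybridised on days 1 and 3, it was 0.021 and -0.027.

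When the fluidics module entered as a block, 9 members were called in the null, 0 in 113, 0 in 424 and 1 in 65, where 13.2%, 0.981%, 0.957% and 0.766% of all genes were called by limma at an adjusted p under 0.05. The 9 were ND-B17, ND-18, ND-42, ND-51L1, COX4, COX8, ATPsynbeta, ATPsynC and ATPsynD, and the 1 was ATPsynCF6. In that fit the hypomorphs are tied to the control only through the null arrays. Of 28 calls of a hypomorph against the control, 11 were smaller and 17 larger with the block, in no case with a change of sign. The sizes that moved by over 1.5 times were those of ND-39 in 424 (-0.10 with the block and -0.32 without it), ND-ACP in 65 (0.24 and 0.37) and ND-B18 in 113 (0.45 and 0.28). The median of the members in 424 was 0.16 with the block. Every other call of a hypomorph against the control named below was lost with this block, and the part of the module was not tested further. Of the steps between alleles, those of ATPsynepsilonL from 65 to 424 and from 424 to 113, and those of ND-B17, ND-18 and Sdhaf3 from 113 to the null, were still called, and all others were lost. Among the 6 arrays of module 4 alone (4 control and 2 null), 4 members were called: ND-B17 and ND-18 lower, ND-42 and COX4 higher. In that comparison 10.9% of all genes were called. Single arrays also moved the counts, with 5 members called in 113 without 113 replicate 1 and 6 in 424 without control replicate 1.

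**Figure D2:**
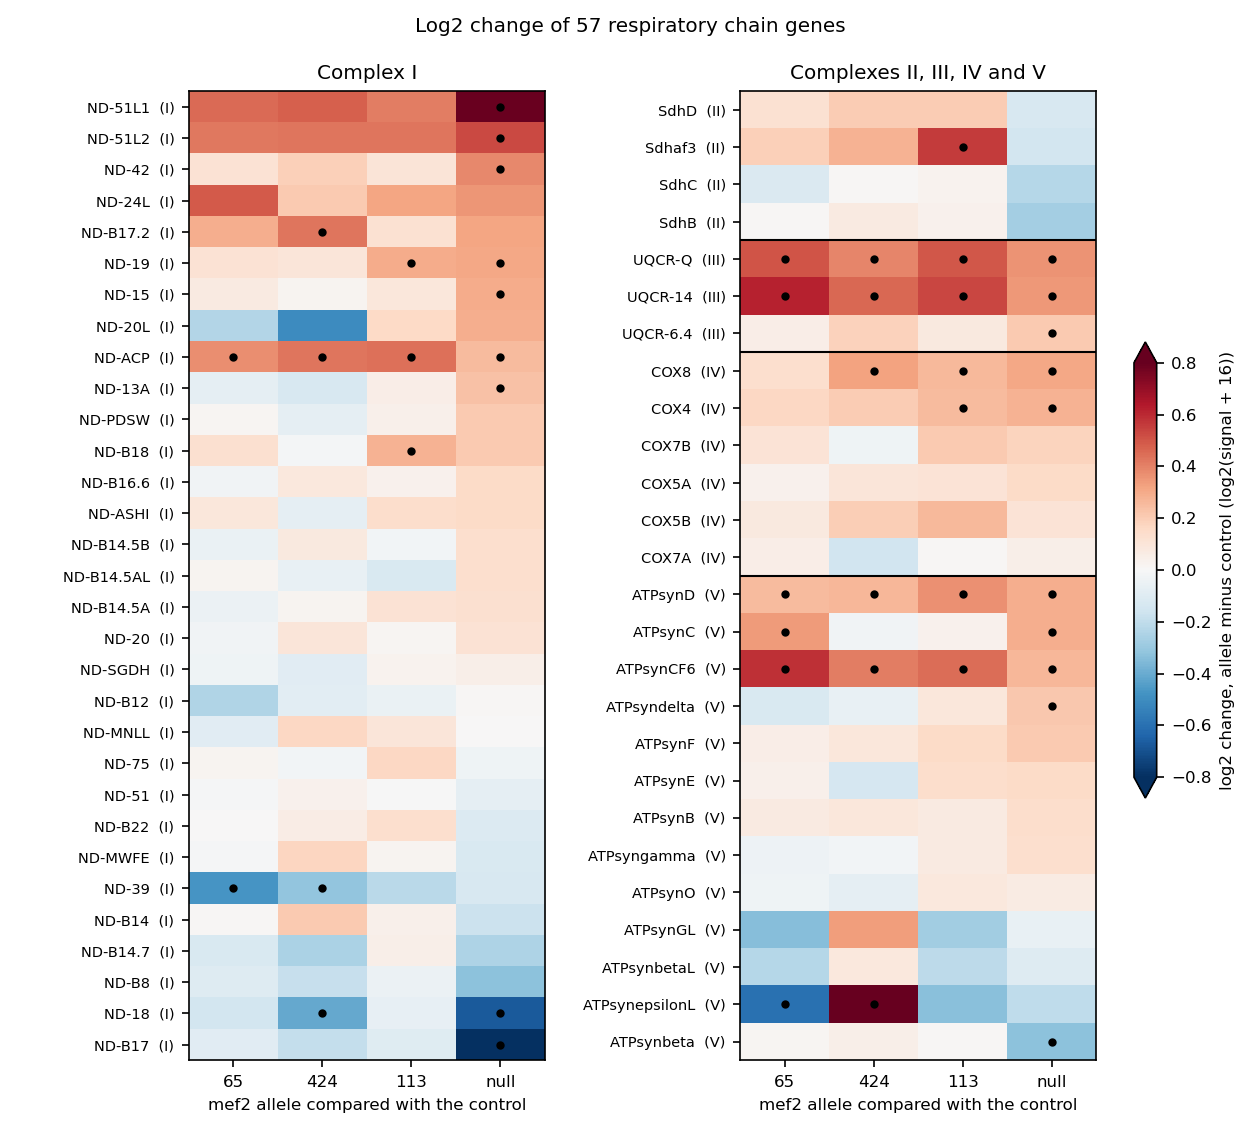
Each cell is the log2 change of 1 member, allele minus control, on the log2(signal + 16) scale, with colour running from -0.8 (blue) to 0.8 (red) and members ordered within each complex by their change in the null. Black dots mark changes called by limma (adjusted p under 0.05): 3 members, ND-B17, ND-18 and ATPsynbeta, are lower in the null, and 5 members have dots in all 4 columns.

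Complex I had the largest fall in the null of any member, in ND-B17, beside 7 smaller rises. ND-B17 is the counterpart of mammalian NDUFB6, an accessory subunit of the membrane arm. Its signals were 379.9, 378, 348 and 330.1 in the control and 159, 135, 124 and 148 in the null. The null arrays lay far below every array of the other genotypes, which averaged 336 ± 23.3 in 65, 312 ± 16.9 in 424 and 335 ± 6.26 in 113 (mean ± SD, n = 4). The change was -1.26 ± 0.081 (log2, ± SE, adjusted p 1.87e-11 by limma), while no hypomorph was called, at -0.092, -0.19 and -0.095. The 424 arrays also lay just below all control arrays. From 113 to the null the step was -1.16 ± 0.081 (limma adjusted p 1.57e-10). The call in the null held in each of the 30 alternative fits. Mtr4, an RNA helicase gene that was the nearest neighbour tested in RefSeq order on arm 2L (chosen after its values were seen), fell by 0.72 in the null (limma adjusted p 0.0001) and was at -0.20 in 113 without a call.

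ND-18 was lower in the null and also in 424, but not in 113. It encodes the counterpart of NDUFS4, an accessory subunit of the matrix arm. Control arrays read 331, 307, 324 and 324, the 424 arrays 219, 238, 262 and 237, the 113 arrays 311, 316, 311 and 289.7 and the null arrays 193, 197, 184 and 208. The 424 and null arrays lay below all control and all 113 arrays. The change was -0.67 ± 0.076 in the null (limma adjusted p 3.53e-07), -0.41 ± 0.076 in 424 (0.000705) and -0.066 ± 0.076 in 113 (0.722). Along the series the signal fell from 65 to 424 by 0.26, a call that was lost in 16 of the 20 fits that left out 1 array, and with median centring, quantile normalisation or the hybridisation day as a block. It rose by 0.34 from 424 to 113 and fell by 0.61 from 113 to the null. With the module block the first and second of these steps were not called (limma adjusted p 0.217 and 0.0606) and the last was (0.00135). The order of the signals did not follow the order of Mef2 activity. pcm, the neighbouring gene on X that encodes an RNA exonuclease (chosen after its values were seen), fell by 0.69 in the null (limma adjusted p 4.1e-05) and was at 0.30 in 424 without a call. On the other side, CG12204, which overlaps ND-18, and ksh were at 0.16 and 0.24 in the null, both without a call.

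**Figure D3:**
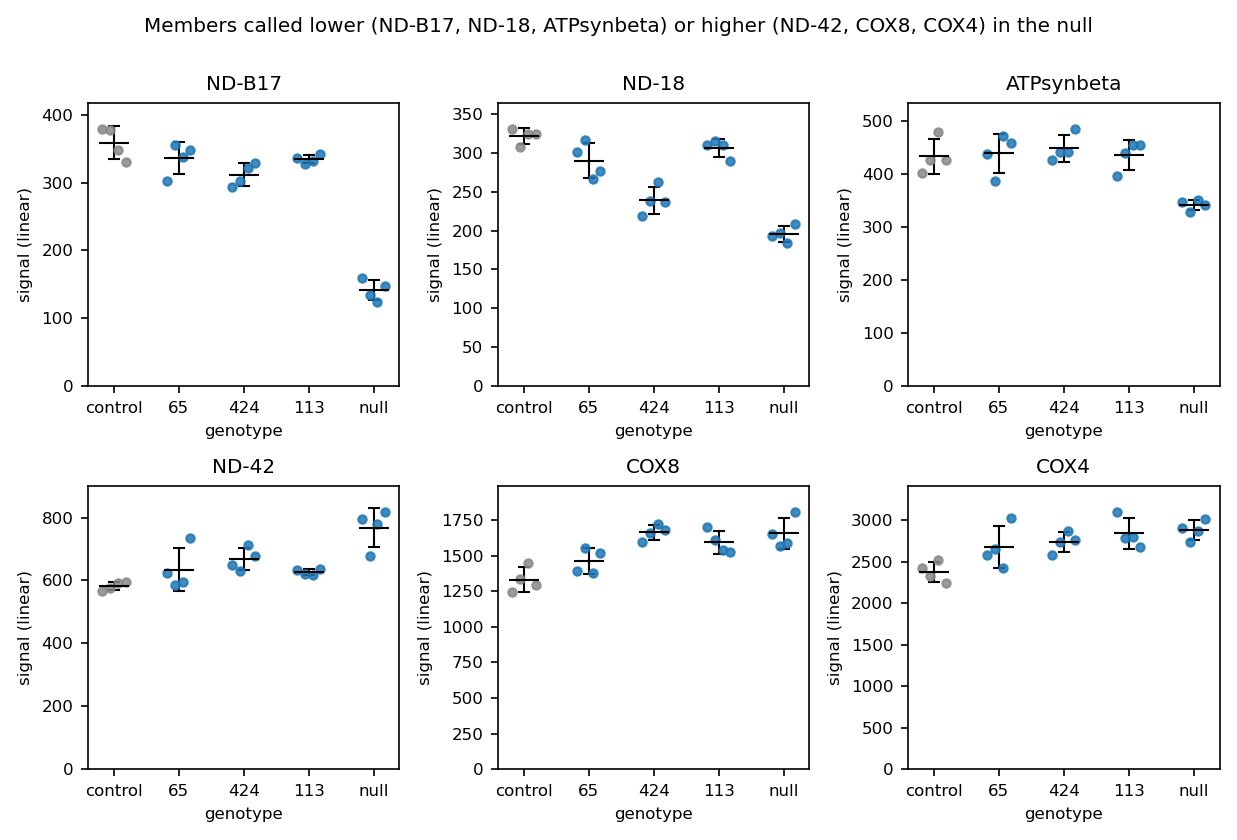
Points are the signals of the 4 arrays of each genotype (linear MAS5 scale from 0), with the mean as a bar and the SD as whiskers, for 3 members called lower and 3 called higher in the null. ND-B17 and ATPsynbeta were called lower in the null and in no hypomorph, whereas ND-18 was also called lower in 424.

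Other complex I genes rose in the null. ND-42, the counterpart of NDUFA10 in the membrane arm, read 567, 575, 593 and 595 in the control and 796, 679, 779 and 819 in the null. All null arrays were above all control arrays, with a change of 0.39 ± 0.075 (limma adjusted p 0.000481), and the hypomorphs at 0.10 to 0.19 were not called. Its neighbour Cchl on arm 3R, which encodes the lyase that attaches heme to cytochrome c (chosen after its values were seen), was higher by 0.58 in the null, 0.44 in 113 and 0.51 in 424. On either side of this pair, CG6028 was at -0.73 in the null (limma adjusted p 1.7e-06) and CG13409 at -0.54 without a call. ND-19, ND-15 and ND-13A, the counterparts of NDUFA8, NDUFS5 and NDUFS6, changed by 0.31, 0.29 and 0.23 in the null (limma adjusted p 0.0113, 0.0195 and 0.0469). The call of ND-19 was lost without null replicate 4, and that of ND-15 without control replicate 1 or 4 or null replicate 4. That of ND-13A, whose null and control arrays overlapped, was lost in 16 of the 20 fits that left out 1 array and with quantile normalisation.

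ND-ACP was the only complex I gene called in all 4 alleles. It encodes the mitochondrial acyl carrier protein, which is a subunit of complex I and also serves fatty acid and iron-sulfur cluster synthesis in mitochondria. The control read 505, 529, 547 and 497, 65 read 682, 649, 670.4 and 699.6, 424 read 657, 751, 737 and 672, 113 read 713, 720.3, 698 and 712 and the null read 622, 602, 569 and 695. Every mutant array was above every control array. The changes were 0.37 ± 0.069, 0.43 ± 0.069, 0.44 ± 0.069 and 0.25 ± 0.069 in the order of falling activity (limma adjusted p 0.000987, 0.000141, 0.000108 and 0.0107). With the module block they were 0.24, 0.30, 0.32 and 0.19, and none was called (0.569, 0.454, 0.331 and 0.173).

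Further calls in complex I were made in the hypomorphs. ND-39, the counterpart of NDUFA9 in the matrix arm, read 484, 452, 517 and 382 in the control, 314, 335, 289 and 366 in 65 and 358, 364, 365 and 367 in 424. The arrays of 65 and 424 were all below the control, with changes of -0.47 ± 0.088 and -0.32 ± 0.088 (limma adjusted p 0.00102 and 0.0218), and the null was at -0.13. With the module block the changes were -0.34 in 65 and -0.10 in 424 (limma adjusted p 0.478 and 0.877). The call in 424 was also lost without control replicate 1 or 3 or 424 replicate 1. ND-B17.2, the counterpart of NDUFA12, rose in 424 by 0.43 ± 0.12 (limma adjusted p 0.0222), from 361 ± 34.6 to 491 ± 51.4, a call lost without control replicate 1 or 2 or 424 replicate 2 or 4. ND-19 rose in 113 by 0.30 and ND-B18, the counterpart of NDUFB7, by 0.28 (limma adjusted p 0.0346 and 0.0441). That of ND-19 was lost without control replicate 1 or 4 or 113 replicate 1, 2, 3 or 4. That of ND-B18 was lost in 8 fits that left out 1 array and with median centring.

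The redox core genes of complex I among the members, ND-75, ND-51 and ND-20, had no call in any comparison. They encode subunits with iron-sulfur clusters or flavin that carry the electrons. ND-51 averaged 456 ± 18.6 in the control and 435 ± 44.1 in the null, a change of -0.069 with a 95% interval of -0.22 to 0.086. ND-75 changed by -0.034 (-0.26 to 0.19) and ND-20 by 0.12 (-0.040 to 0.27) in the null. With 4 arrays a genotype, each interval gives the range of changes compatible with the signals of that gene. The lack of a call does not mean that a gene was unchanged. By arm, 2 of 10 matrix arm genes without second copies were called in the null (1 higher, 1 lower) and 4 of 15 membrane arm genes (3 higher, 1 lower), where 19.8% of all genes and 34.6% of the bright genes were called.

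No complex II gene was called in the null, and all 4 stood below the control there. SdhB, the iron-sulfur subunit, read 441, 400.5, 393 and 344 in the control and 339, 291, 306 and 363 in the null, and the arrays overlapped, with a change of -0.27 ± 0.11 (limma adjusted p 0.0768). The membrane anchors SdhC and SdhD were at -0.23 ± 0.12 and -0.13 ± 0.090 (0.203 and 0.365). From 113 to the null, SdhD fell by 0.33 (limma adjusted p 0.0123), with 323, 299, 289 and 314 in 113 and 246, 232, 208 and 277 in the null, which do not overlap. That call was lost without null replicate 3 and with the module block (limma adjusted p 0.164).

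Sdhaf3, the factor that assists the insertion of iron-sulfur clusters into SdhB, rose in 113 and was not called in the null. The control arrays were spread widely at 61.8, 33.4, 65.4 and 39.7, the 113 arrays read 88.2, 85.8, 77.9 and 66.5 and the null arrays 42.7, 40.8, 42.1 and 44.2. All 113 arrays exceeded all others of the control and the null. The rise in 113 was 0.56 ± 0.14 (limma adjusted p 0.0129), a call lost without control replicate 2 or 4 or 113 replicate 1. The step from 113 to the null was -0.70 ± 0.14 (0.00104) and held in every alternative, including the module block at -0.76 (0.0233).

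All 3 members of complex III rose in the null, and UQCR-14 and UQCR-Q rose in every allele. Of all genes 8.86% were called higher in the null and 0.933% in all 4 alleles. All 3 members are bright, and 20% of the bright genes were called higher in the null. UQCR-14 and UQCR-Q are the counterparts of UQCRB and UQCRQ, small subunits next to cytochrome b. UQCR-14 read 551, 660.2, 708 and 815 in the control, 951, 998, 969 and 1297 in 65, 1032, 885, 782 and 1081 in 424, 874, 1019.5, 1104 and 962 in 113 and 841, 871, 918 and 830.3 in the null. Control and 424 overlapped by 1 array each, and 65, 113 and the null stood clear of the control. The changes were 0.61 ± 0.11, 0.46 ± 0.11, 0.53 ± 0.11 and 0.35 ± 0.11 from 65 to the null (limma adjusted p 0.000987, 0.00976, 0.00345 and 0.0343). The call in 424 was lost without control replicate 1 and that in the null without control replicate 1 or 2 or null replicate 1, 2 or 3, or with quantile normalisation.

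UQCR-Q read 1682, 1888, 2329 and 1824 in the control, 2488, 2767, 2659 and 3006 in 65 and 2718, 2682, 2640.0 and 2807 in 113. In 424 it read 2263, 2427, 2578 and 2861 and in the null 2352, 2313, 2477 and 2719. Control replicate 3, the highest control array, reached into the range of 424 and the null, while 65 and 113 did not overlap with the control. Its changes were 0.50 ± 0.089, 0.39 ± 0.089, 0.50 ± 0.089 and 0.36 ± 0.089 (limma adjusted p 0.000587, 0.00466, 0.000545 and 0.00521). UQCR-6.4, the counterpart of UQCR11, rose in the null by 0.21 ± 0.068 (0.0328), from 1419.6 ± 36.8 to 1644 ± 113, a call lost without control replicate 1, 2 or 3 or null replicate 3 or 4, or with quantile normalisation. In 424 it stood at 0.18 without a call.

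**Figure D4:**
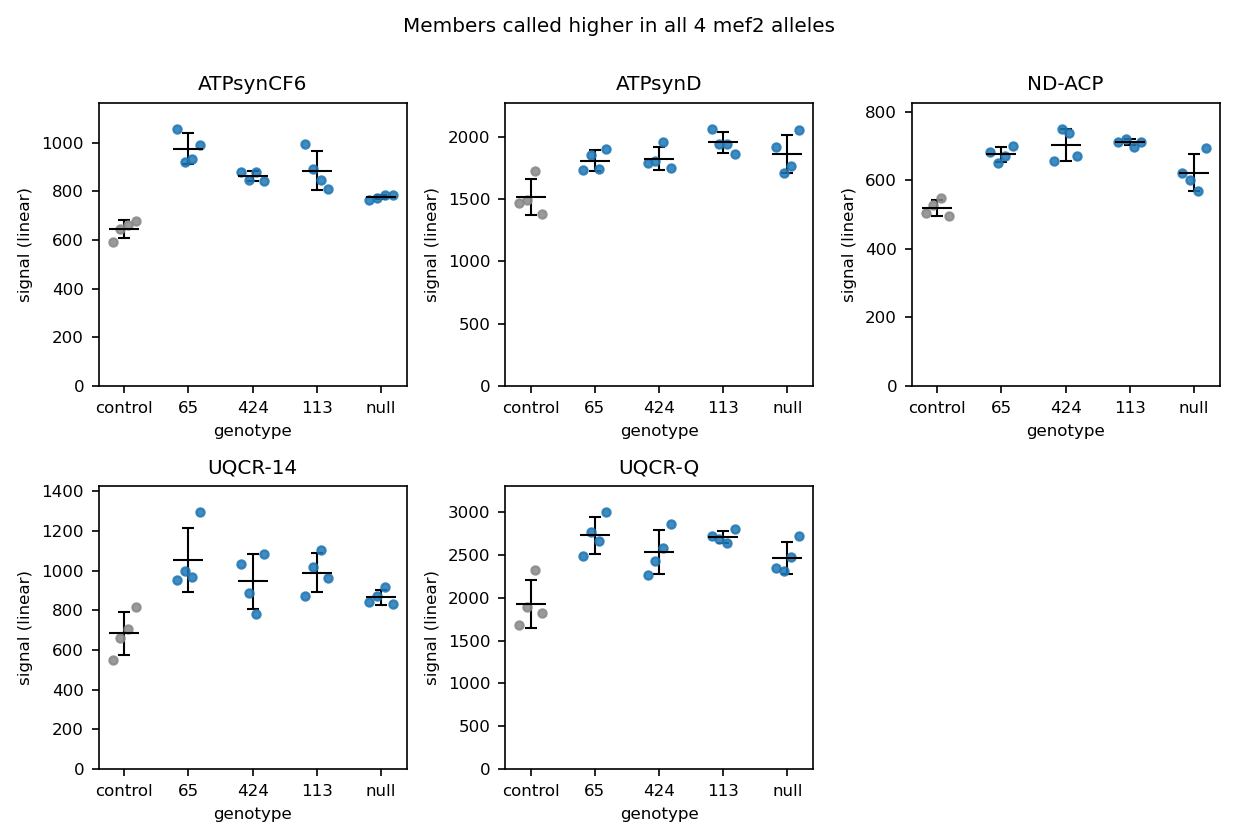
Points are the signals of the 4 arrays of each genotype (linear MAS5 scale from 0), with the mean as a bar and the SD as whiskers, for the 5 members called higher in all 4 alleles: ATPsynCF6, ATPsynD, ND-ACP, UQCR-14 and UQCR-Q. In each panel the control has the lowest mean, and the null mean lies below that of 113.

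Of the 6 complex IV genes, 2 rose in the null, 2 in 113, 1 in 424 and 0 in 65. In the same order, 8.86%, 3.43%, 4.67% and 2.98% of all genes were called higher. All 6 are bright, and of the bright genes 20%, 6.90%, 8.79% and 5.09% were called higher. COX4 and COX8 encode nuclear subunits of cytochrome c oxidase. COX8 read 1244, 1338, 1450.1 and 1292 in the control and 1656, 1571, 1589 and 1809.5 in the null, with 1596 to 1719 in 424 and 1525 to 1701 in 113. None of these mutant arrays overlapped with the control, and the changes were 0.31 ± 0.068, 0.32 ± 0.068 and 0.26 ± 0.068 (limma adjusted p 0.00159, 0.00248 and 0.0166). In 65 it was at 0.13 without a call. The call in 113 was lost without control replicate 1 or 113 replicate 1.

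COX4 read 2418, 2324, 2514 and 2239.5 in the control and 2903, 2733, 2871 and 3015 in the null. The null arrays were all above the control, by 0.28 ± 0.071 (limma adjusted p 0.00614), a call that held in all alternatives. In 113 it rose by 0.26 (0.0246), lost without control replicate 2 or 4 or 113 replicate 1, or with quantile normalisation. COX7B was not called against the control (0.18 in the null), but rose from 424 to 113 by 0.24 (limma adjusted p 0.0348), lost without 424 replicate 1, 2 or 4 or 113 replicate 1, 3 or 4, or with median centring or quantile normalisation. It was 0.17 with the module block (limma adjusted p 0.309). COX5A, COX5B and COX7A were called in no comparison, with changes in the null of 0.15, 0.11 and 0.045.

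In complex V, 2 of 4 peripheral stalk genes rose in every allele, where 0.933% of all genes were called higher in all 4. The stalk holds the catalytic head still while the rotor turns. ATPsynCF6, coupling factor 6, read 593, 644, 663 and 676 in the control, 1058, 922, 934 and 989 in 65, 879, 845, 881 and 841 in 424, 992, 892, 846 and 810.0 in 113 and 765, 771, 785 and 783 in the null. No mutant array overlapped with the control. The changes were 0.59 ± 0.069, 0.41 ± 0.069, 0.45 ± 0.069 and 0.26 ± 0.069 (limma adjusted p 2.64e-06, 0.000222, 9.93e-05 and 0.00765), with the largest value in 65, the allele with the most Mef2 activity, and the smallest in the null. With the module as a block, 65 stayed called at 0.59 (0.0416) and the null did not at 0.26 (0.0606).

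ATPsynD, subunit d of the same stalk, averaged 1518 ± 145 in the control, 1809.5 ± 84.1 in 65, 1826 ± 94.8 in 424, 1956 ± 84.0 in 113 and 1862 ± 155 in the null (n = 4 each). The null overlapped with the control through 1 array on each side. Its changes were 0.25 ± 0.074, 0.27 ± 0.074, 0.37 ± 0.074 and 0.29 ± 0.074 (limma adjusted p 0.0383, 0.0204, 0.00186 and 0.00553). The call in 424 was lost without control replicate 1, 2 or 4 or 424 replicate 3, and that in 65 without control replicate 1, 2 or 4 or 65 replicate 1, 2, 3 or 4, or with no filter on low values or median centring or the hybridisation day as a block. The other stalk genes, ATPsynB and ATPsynO, were called in no comparison, at 0.14 and 0.064 in the null.

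Among catalytic and rotor genes, ATPsynbeta fell and ATPsynC rose in the null. ATPsynbeta, the catalytic subunit, read 402, 426, 479 and 426 in the control, 395, 439.8, 454 and 455 in 113 and 346, 329, 351 and 341 in the null. All null arrays were below all arrays of the other genotypes, with a change of -0.33 ± 0.077 (limma adjusted p 0.0034) and a step from 113 of -0.33 ± 0.077 (0.00353). The step was not called when the module was a block (limma adjusted p 0.061). The overlapping gene CG11076 was called higher in the null, at 0.30 (limma adjusted p 0.0389). ATPsynbeta is the only member on chromosome 4, where 19 of 47 tested genes were lower and 1 higher in the null. The partner alpha subunit, blw, which has another symbol, was at 0.061 ± 0.070 in the null (0.615).

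ATPsynC encodes the c ring of the rotor. It read 1006, 881, 1009.6 and 853 in the control, 1151, 1286, 1133 and 1185 in 65 and 1236, 1030.4, 1099 and 1232 in the null, with 844 to 977 in 424 and 913 to 999 in 113. The arrays of 65 and the null stood above the control, those of 424 and 113 did not. The changes were 0.34 ± 0.077 in 65 and 0.29 ± 0.077 in the null (limma adjusted p 0.00649 and 0.00863), and 424 was lower than 65 by a step of -0.37 ± 0.077 (0.00383, and 0.0663 with the module block). A dimmer probe set of the same gene was at -0.15 in the null and 0.15 in 65, and all calls of ATPsynC were lost when the probe sets were averaged. ATPsyndelta, of the central stalk, rose in the null by 0.22 ± 0.077 (0.0477), with arrays that overlapped. This call was lost in 13 of the 20 fits that left out 1 array, with no filter on low values and with quantile normalisation.

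Second copies of subunits, several of which are known in flies for expression in the testis, were under the level in 9 cases and members in 8. In the null 2 of the 8 were called, both higher, where 19.8% of all genes were called and 8.86% were higher. ATPsynepsilonL resembles the epsilon subunit of the central stalk. Signals were 57.9, 70.4, 83.9 and 113 in the control, 47.2, 49.8, 53.0 and 38.2 in 65, 147, 190.4, 173 and 183 in 424, 63.95, 56.6, 57.4 and 59.8 in 113 and 58.9, 49.3, 71.7 and 93.1 in the null. The 424 arrays lay above all 16 others. The change against the control was 0.99 ± 0.16 in 424 and -0.60 ± 0.16 in 65 (limma adjusted p 0.000113 and 0.0197), the latter lost without control replicate 3 or 4 or 65 replicate 4.

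Between hypomorphs, ATPsynepsilonL rose by 1.58 ± 0.16 from 65 to 424 and changed by -1.32 ± 0.16 from 424 to 113 (limma adjusted p 1.69e-07 and 3.09e-06). Both steps held in every alternative. With the module block they were 1.61 and -1.25 (1.3e-05 and 0.00029). The gene for the ordinary epsilon subunit, sun, averaged 927 ± 174 in 65, 925 ± 100.3 in 424 and 836 ± 24.6 in 113 and was called in none of these comparisons.

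**Figure D5:**
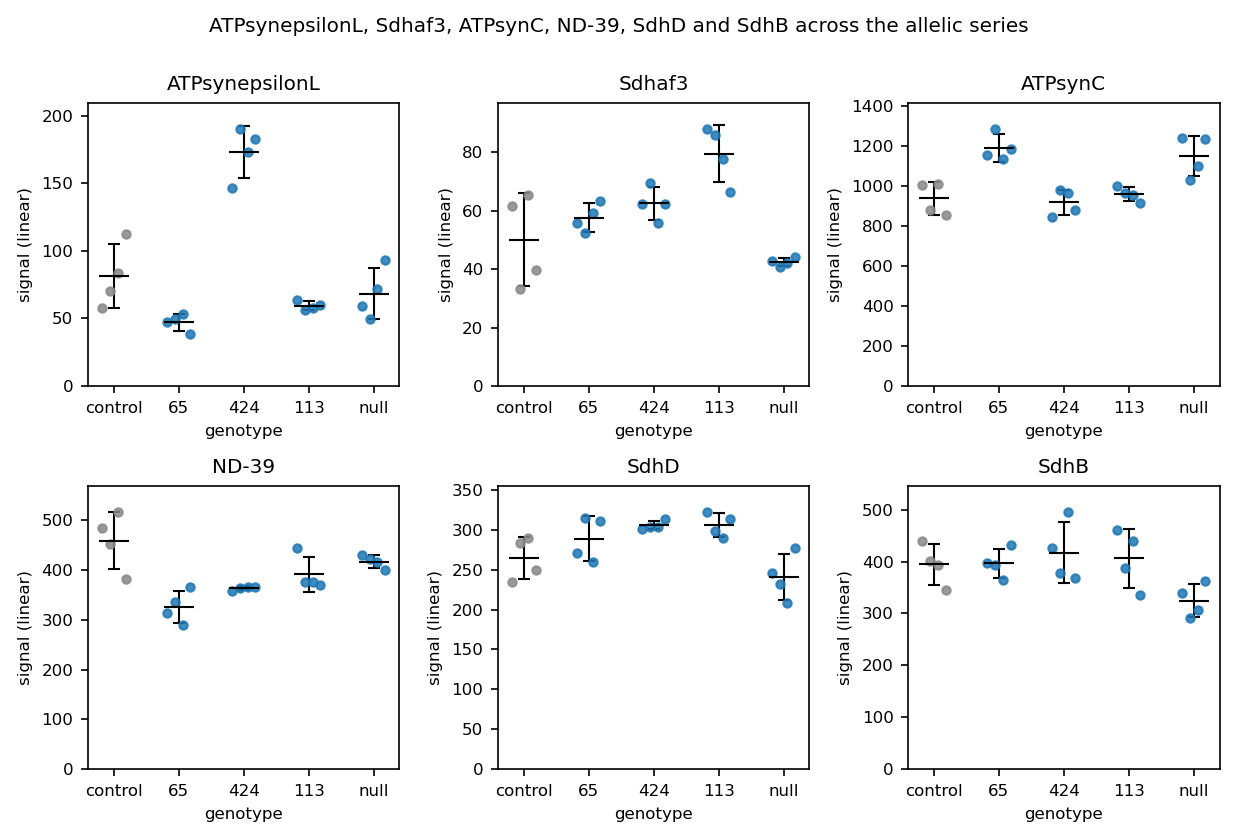
Points are the signals of the 4 arrays of each genotype (linear MAS5 scale from 0), with the mean as a bar and the SD as whiskers. ATPsynepsilonL is high in the 424 arrays alone, Sdhaf3 is highest in 113, ATPsynC is high in 65 and the null, ND-39 is lowest in 65, and SdhD and SdhB are lowest in the null.

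ND-51L1 and ND-51L2 resemble ND-51, the flavin subunit of complex I. ND-51L1 read 4.89, 13.9, 2.13 and 4.42 in the control, where 3 of 4 arrays were under the level of 9.28, and 18.2, 17.202, 41.7 and 15.4 in the null. The change was 0.79 ± 0.24 (limma adjusted p 0.0226) and its size depends on the pseudocount, at 1.84 with a pseudocount of 1 and 0.30 with 64. It was lost without control replicate 3 or 4 or null replicate 3. ND-51L2 rose by 0.53 ± 0.18 in the null (0.0416), from 17.04 ± 4.63 to 31.5 ± 4.10, and that call was lost without control replicate 1, 3 or 4 or null replicate 2, 3 or 4, or with a pseudocount of 64 or no filter on low values. The other second copies, ND-20L, ND-24L, ND-B14.5AL, ATPsynGL and ATPsynbetaL, were called in no comparison. Their 95% intervals in the null were wide, as for ND-20L at -0.42 to 1.00.

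The 3 steps between neighbouring alleles and the linear trend over the order of activity gave further counts. From 65 to 424, 3 members were called (1 higher, 2 lower), where 4.61% of all genes were, 1.63% higher and 2.98% lower. From 424 to 113, 4 were called (3 higher, 1 lower), where 7.25% of all genes were, 4.09% higher and 3.16% lower. This count was 2 without 424 replicate 2 or 4 or 113 replicate 1, 3 or 4, and 2 with the arrays centred on their medians. From 113 to the null, 8 were called (2 higher, 6 lower), where 15.2% of all genes were, 6.81% higher and 8.35% lower. The 6 that fell were ND-B17, ND-18, ND-B14, SdhD, Sdhaf3 and ATPsynbeta, and the 2 that rose were ND-42 and ATPsynC.

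ND-B14, the counterpart of NDUFA6, fell by 0.21 in that last step (limma adjusted p 0.0363), with 506, 499.5, 496 and 489.9 in 113 and 420.2, 436, 418 and 442 in the null. It was lost without 113 replicate 1, 2, 3 or 4 or null replicate 1, 2 or 3, or with median centring, and with the module block (limma adjusted p 0.209). The trend was called for 17 members, 14 upward and 3 downward with falling activity, where 17.9% of all genes were called, 7.93% upward and 9.95% downward. ND-B17 and ND-18 had the smallest p of the trend, at slopes of -0.25 ± 0.018 and -0.13 ± 0.017 log2 units per rank. COX8 followed with 0.075 ± 0.015, ND-42 with 0.076 ± 0.017 and ATPsynD with 0.070 ± 0.017 (limma adjusted p 0.000906, 0.00192 and 0.00362). ND-B17 and ND-42 were called in no hypomorph. Any difference among the 5 genotypes was called for 23 members, where 27.9% of all genes were.

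Calls were also counted by chromosome. The mef2 gene and the marker mutations of the control stock lie on chromosome 2. On chromosome 2 were 22 members, of which 8, 2, 1 and 0 were called in the null, 113, 424 and 65, where 22.3%, 3.95%, 7.24% and 2.53% of all tested genes on that chromosome were. On chromosomes 3, 4 and X were 35 members, of which 11, 8, 9 and 8 were called, where 18.4%, 9.49%, 12.0% and 8.24% of all tested genes there were. The 5 members called higher in all 4 alleles (ATPsynCF6 and ATPsynD on 3R, ND-ACP and UQCR-Q on 3L, UQCR-14 on X) were all outside chromosome 2. Of all genes, 0.933% were called higher in all 4 alleles and 1.03% lower in all 4, the latter with 0 members. How far the chromosomes other than 2 differed between the control stock and the mutant stocks is not given in the labels, so Mef2 activity and stock cannot be told apart in calls that all mutants share.

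The 33 members called in no allele had changes between -0.50 and 0.49, with a median half-width of the 95% interval of 0.18. Both extremes belong to dim second copies, ND-20L in 424 and ND-24L in 65. Bright members without a call included COX5B and ATPsynE, with 0.26 and 0.14 in 113. ATPsynE varied within 424, where replicate 1 read 1380.1 against 1993, 2157 and 2010.1 in the other arrays. Around the level of the rule, the members ND-B8, ND-51L1 and ND-20L were just inside with mean log2 values of 4.78, 4.88 and 5.18, and ATPsynCF6L, SdhAL and COX4L just outside with 4.50, 4.49 and 4.43.

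Some respiratory chain genes carry symbols outside the rule. Of 10 such genes 7 were tested, and in the null 2 were called, both higher, with 0 in 113, 424 and 65. Of all genes 8.86% were higher in the null, and 7.38%, 10.2% and 6.08% were called in 113, 424 and 65. RFeSP, the Rieske iron-sulfur protein of complex III, averaged 608 ± 66.5 in the control and 776 ± 103 in the null, a change of 0.34 ± 0.12 (limma adjusted p 0.0419). The complex IV gene cype rose by 0.27 ± 0.085 (0.0264). Cyt-c1, ox, levy, sun and blw were not called in any allele.

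Assembly and biogenesis factors showed 4 rises and 1 fall among 17 tested in the null, where 8.86% of all genes were higher and 10.9% lower. Nfs1, IscU and bcn92, which act together in building iron-sulfur clusters, changed by 0.45, 0.47 and 0.38 (limma adjusted p 0.00114, 0.000148 and 0.00842). IscU signals were 266, 268, 293 and 269.9 in the control and 404, 373, 399 and 370.3 in the null. sicily, a complex I assembly factor, rose by 0.70 (0.00764), and Surf1, which assembles complex IV, changed by -0.40 (0.0194). In the hypomorphs the only call on this list was IscU in 424, at -0.26.

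In pyruvate dehydrogenase and the TCA cycle, with 11 genes tested, 2 rose and 1 fell in the null, 2 rose and 1 fell in 113, 3 rose and 2 fell in 424, and 1 rose in 65. Of all genes 19.8%, 7.38%, 10.2% and 6.08% were called in these comparisons. The 5 called in 424 were Ogdh, CG5214 and ScsbetaA, at 0.41, 0.67 and 0.61, and Idh and ScsbetaG, at -0.84 and -0.27. Idh, an isocitrate dehydrogenase, was at 0.74 in the null and -0.84 in 424, both called, and Scsalpha1, of succinyl-CoA ligase, was at -0.50 in the null. Of 12 carrier, channel and import genes 2 rose in the null, where 8.86% of all genes were higher, and 0 were called in the hypomorphs. porin, the channel of the outer membrane, read 1312, 1286, 1353 and 1328 in the control and 2089, 1986, 1994 and 2310.4 in the null, a change of 0.66 ± 0.069 (limma adjusted p 1.14e-07).

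Of 10 genes for the mitochondrial genome and its control, 3 rose in the null: mtTFB2 by 0.58, mtDNA-helicase by 0.44 and mTTF by 0.46 (limma adjusted p 0.0108, 0.00866 and 0.00311). The median of these 10 was 0.22 in the null, where 8.86% of all genes were called higher. Of 8 genes of mitochondrial beta-oxidation, wal was called in the null at 0.30 and CPT2 in 65 at 0.44, where 19.8% and 6.08% of all genes were called. These companion lists were chosen with earlier results of the data known, and their counts carry no test of the lists.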

How the data were processed

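Expression was measured on Affymetrix DrosGenome1 arrays, 4 for each of 5 genotypes. The deposited values are linear MAS5 intensities from the authors, as the submitters' processing notes state, and the 2% trimmed mean of each array was 100.02, so no further scaling was applied. Of 14010 probe sets, 12443 had 1 gene symbol, 327 several and 1196 none, besides 44 controls. Symbols were updated through Entrez gene IDs, which matched for 12394 probe sets. The brightest probe set stood for each of 10844 genes, and 8360 genes with a mean log2(signal + 16) of at least 4.66 were tested. All 20 arrays entered 1 limma fit (limma 3.58.1, R 4.3.3) with a mean per genotype and no covariates, and p-values were adjusted over all 8360 genes by Benjamini-Hochberg. The ± of a log2 change is its SE and that of a signal its SD. The test was tested on simulated data.

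Members and lists were chosen with earlier results of these data known. Members were named if among the 12 called with the smallest p per allele, the 5 per step and trend, the 6 brightest, at the level of the rule, or second copies. Other members, such as ND-15, ND-13A, UQCR-6.4, ATPsyndelta, ND-B14, SdhB, SdhC, SdhD and the redox core genes, were chosen after their values were seen. Alternatives were other pseudocounts, no filter, median centring, quantile normalisation, the mean of a gene's probe sets, the replicate number, hybridisation day or fluidics module as a block, and leaving out each array. The arrays of fluidics module 4 alone, and the comparison with bright genes, were added after seeing the data. Mef2 and sequences were not analysed here.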

Additional observations from a re-analysis of the deposited data

Results flagged for a closer look

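A check for 1 array far from the other 3 covered 30 of the members named above, not all of them. In 150 groups of 4 arrays, 6 such arrays were found. Chance gives about 1 in 20 groups. ND-51L1 read 41.7 in null replicate 3 and 15.4 to 18.2 in the other null arrays, and without that array its change in the null was 0.59 with a limma adjusted p of 0.106, so the call was lost. ND-51L2 read 25.4 in null replicate 1 and 33.0 to 33.9 in the others, and without it the change was 0.59 (limma adjusted p 0.0394). UQCR-14 read 1297 in 65 replicate 4 and 951 to 998 in the others. The fluidics record of that array states that its run was aborted by the user, and without it the change in 65 was 0.51 (limma adjusted p 0.00544). ND-39 read 445 in 113 replicate 1 and 369 to 376 in the others. ND-24L read 5.03 in 424 replicate 4 and 26.2 to 31.4 in the others. ND-B14.5AL read 54.5 in 113 replicate 3 and 29.4 to 30.9 in the others.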

How the results depend on the processing

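Of 79 called values of members, 0 reversed in any alternative and 16 were lost in none. The fluidics module as a block ended 56 of them, quantile normalisation 14, median centring 6, the mean of the probe sets 4, no filter 5, the hybridisation day as a block 2, a pseudocount of 64 1 and a pseudocount of 1 0. The arrays of module 4 alone, which cover only the null against the control, ended 15 of the 19 calls of that comparison. With the module block the members called numbered 9 in the null, 0 in 113, 0 in 424, 1 in 65, 1 from 65 to 424, 1 from 424 to 113, 3 from 113 to the null, 8 in the trend and 10 for any difference. In that fit and the same order, 13.2%, 0.981%, 0.957%, 0.766%, 2.52%, 3.71%, 6.88%, 11.5% and 18.2% of all genes were called. The members' median in 424 was 0.16 there, against 0.077. On module 4 alone 4 members were called in the null, where 10.9% of all genes were. With median centring 2 were called from 424 to 113, where 6.99% of all genes were. The cause was not tested, and the hypomorphs and the control share no module. With median centring the median of all genes in the null was 0.043, against -0.010.

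The replicate number equals the hybridisation day in every genotype but 65. Deviations of same-numbered arrays from their group means correlated at -0.019 to 0.17 (median 0.058, 10 of 40 pairs over 0.1), and those of other pairs at -0.15 to 0.11 (median -0.020, 1 of 120 over 0.1). Same-numbered arrays were thus somewhat more alike than other pairs. The unblocked fit was kept because not every same-numbered pair was over 0.1, a rule that does not exclude a shared effect of replicate or day. With the replicate block 22, 12, 12 and 8 members were called in the null, 113, 424 and 65. In the same order 22.5%, 8.77%, 12.4% and 7.17% of all genes were called. In the steps 4, 4 and 9 members were called (5.56%, 8.97% and 17.6% of all genes). The trend was called for 18 (20.2%) and any difference for 26 (32.2%). With this block 0 of the 79 calls was lost.

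Leaving out 1 array gave 13 to 20 members in the null, 5 to 11 in 113 (5 without 113 replicate 1), 6 to 11 in 424 (6 without control replicate 1) and 6 to 8 in 65. The steps gave 2 to 3, 2 to 5 (2 without 424 replicate 2 or 4 or 113 replicate 1, 3 or 4) and 6 to 11, the trend 12 to 18 and any difference 20 to 24. The members' median lay between 0.11 and 0.16 in the null, 0.068 and 0.11 in 113, 0.041 and 0.11 in 424, and -0.0039 and 0.054 in 65.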
